A study of Mus musculus with 19 samples.

Results

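Translation initiation factors are the proteins that bring the ribosome, the initiator tRNA and an mRNA together at a start codon. The genes described here are the rows of both deposited count tables whose symbol starts with Eif, without the eIF2 alpha kinases Eif2ak1 to Eif2ak4 and without pseudogene rows. The genes of the 4E-BPs, the inhibitors of eIF4E, stay in. This gave 50 of 20436 genes. The study asked which mRNAs and ribosome-protected fragments (RPFs) respond when group I metabotropic glutamate receptors are stimulated in the hippocampus with dihydroxyphenylglycine (DHPG). All slices came from wild-type male mice of 28 to 42 days. Slices of the basal group received artificial cerebrospinal fluid (vehicle) and slices of the DHPG group 100 µM DHPG, each for 5 min, and both were then held in cycloheximide at 100 µg/ml, which stops elongating ribosomes on the mRNA. Per the methods, slices of 6 mice were pooled for each replicate and kept their CA3 region. RNA-seq was made after depletion of ribosomal RNA (4 basal and 5 DHPG libraries), and ribosome profiling sequenced the footprints of single ribosomes (5 basal and 5 DHPG libraries). The DHPG RNA library of replicate 5 had no basal partner.

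During initiation, eIF2 carries the initiator tRNA to the small ribosomal subunit, and eIF2B recharges eIF2 with GTP. eIF1, eIF1A, eIF3 and eIF5 act on the small subunit while it scans, and the cap-binding complex eIF4F (eIF4E, eIF4G and the helicase eIF4A) recruits the mRNA. In neurons, metabotropic glutamate receptors signal through mTORC1 and ERK to eIF4E and the 4E-BPs, and mTORC1 controls mRNAs that begin with a 5′ terminal oligopyrimidine (TOP) motif, among them several initiation factor mRNAs.

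The start regions of a few of these mRNAs are shown as examples. The strongest start codons have A or G at position -3 and G at position +4, counted from the A of ATG as +1. Of 48 members, 22 had both, which is 45.8%, against 41.8% of 18495 genes. Counted were genes with enough annotated bases before the start codon in GENCODE for GRCm38 (mm10), which Eif4a2 and Eif4g3 lacked. The following stretches of 20 bases run across the start codon, with positions -3 and +1 to +4 in capitals.
Eif1 (start codon at chr11:100320130-100320132, plus strand): atcgtatCgtATGTccgcta
Eif1b (start codon at chr9:120492811-120492813, plus strand): ctagtgtCgcATGTccacta
Eif4g2 (start codon at chr7:111081545-111081547, minus strand): agccgccAaaGTGGagagtg
Eif2b5 (start codon at chr16:20498914-20498916, plus strand): gcgaagcAagATGGcagcca
Eif1 and Eif1b, which encode the start codon sensor eIF1, had neither favoured base. Eif4g2, an eIF4G relative that lacks the eIF4E binding site, is annotated with GTG in place of ATG, in an otherwise strong context. Eif2b5, the catalytic subunit of eIF2B, is shown as a member with both bases.

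Only 2 of 39 members matched in the RefSeq promoter table (GRCm38.p6) had a start site of TOP type, a C followed by at least 4 pyrimidines. The share over all genes of that table was 3.01%. Their first 20 transcribed bases are shown with the pyrimidine run in capitals.
Eif2s3x (chrX:94212632-94212651, minus strand): CTTTTCTCTCCgagcaagat
Eif3f (chr7:108934415-108934434, plus strand): CTCTCTTTCTCggcaagatg
Eif2s3x encodes the gamma subunit of eIF2, and Eif3f a subunit of eIF3.

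The libraries differed in depth, with total counts of 4870813 to 7793244 per RNA library and 5692064 to 22092434 per RPF library. The RNA libraries also fell apart by replicate. In 32.2% of 12935 genes, both basal RNA libraries of replicates 2 and 3 lay below both of replicates 1 and 4, and in 32.8% both lay above. Among the 47 members tested in RNA, 26 were lower and 12 higher in replicates 2 and 3. Markers of pyramidal neurons, the labelled tissue's main cells, were present in every group (6 of 6 genes, 3332 to 6135 summed CPM over all libraries).

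The levels of the initiation factors spanned more than 2 orders of magnitude. A level is given here as TPM, the count of a gene divided by its coding length without the outer 30 bases at each end and scaled so that each library has the same sum over genes. The region over which RNA was counted is in doubt, as described below, and RNA levels per transcript length were not computed. Comparisons of RNA with RPF levels between genes depend on this scale. Together the 50 genes made up 7466 ± 666 TPM (SD, n = 4) of basal RNA and 8473 ± 250 TPM (SD, n = 5) of basal RPFs. After DHPG the sums were 7167 ± 347 and 8278 ± 217 TPM (SD, n = 5 each), and the ranges overlapped the basal ones in both assays.

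In basal RPFs, Eif1 was highest among the members with 2006, 1876, 1798, 1587 and 1646 TPM in replicates 1 to 5. It was followed by Eif5a, which encodes the hypusine-bearing factor eIF5A, with 1229 ± 71.9 TPM (SD, n = 5), and by Eif4a2, a helicase of eIF4F, with 591 ± 24.1. The 5 libraries of Eif1, of Eif5a and of Eif4a2 did not overlap, while those of Eif4a2 overlapped with the next gene, Eif4h (585 ± 47.0 TPM, SD, n = 5). In basal RNA the order was different, with Eif4a2 first (1315, 1248, 964 and 1689 TPM in replicates 1 to 4), then Eif5a (711 ± 127 TPM, SD, n = 4) and Eif4a1 (599 ± 69.1). The libraries of Eif4a2 lay above those of Eif5a, and the ranges of Eif5a and Eif4a1 overlapped. At the other end, Eif4ebp1, the best known 4E-BP, had 4.10 ± 0.752 TPM in basal RNA and 4.08 ± 1.69 in basal RPFs. Eif4ebp3 had a highest value of 0.336 CPM over the RNA libraries and 0.712 over the RPF libraries. Eif4e1b, the eIF4E form of the germ line, was at 0 counts in all 9 RNA libraries and had at most 0.155 CPM in an RPF library. CPM is the count scaled by edgeR to the size of its library, with no correction for length.

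**Figure D1:**
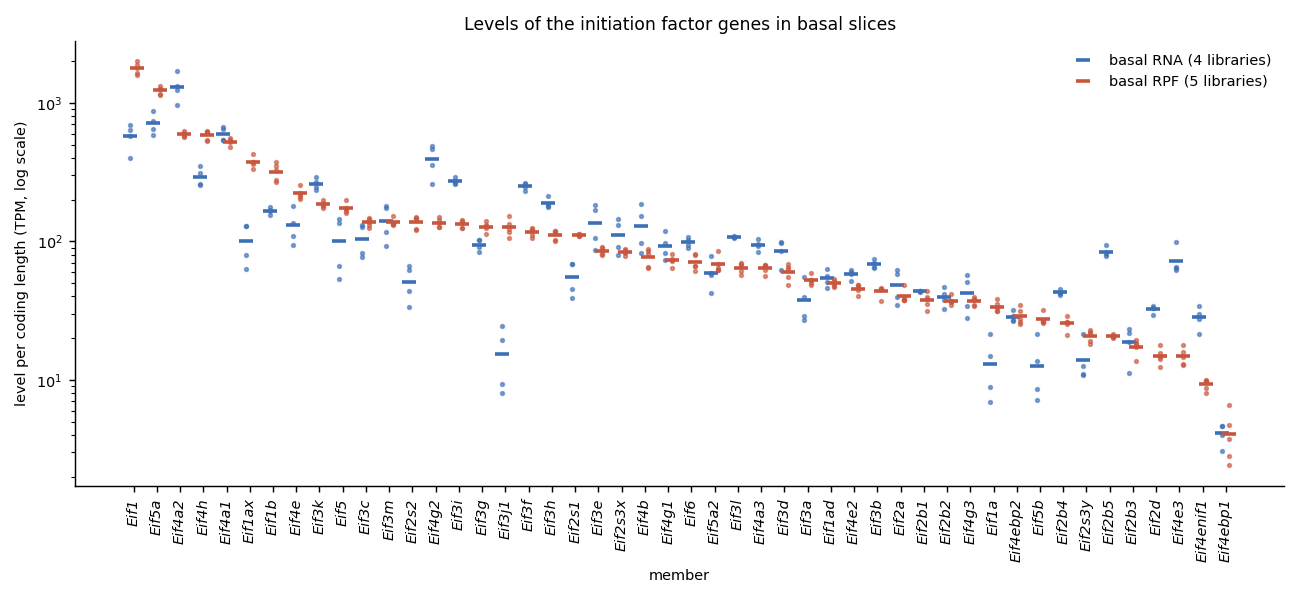
Level of 48 members in basal slices, in TPM per coding length on a log axis, ordered by the RPF mean. Points are single libraries (4 RNA in blue, 5 RPF in red) and bars are group means. Eif1 leads in RPFs with a mean of 1783 TPM, Eif4a2 leads in RNA with 1304 TPM, and Eif4ebp1 is last in both. Eif4e1b and Eif4ebp3 are left out because libraries were at 0.

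Several pairs of paralogs had other level ratios per coding length in RNA than in RPFs. Some pairs also differed in how many 30-base windows of coding sequence occur in other genes' transcripts. Such windows made up 99.2% of Eif4a1 and 40.5% of Eif4a2, and 76.5% of Eif4e and 1.60% of Eif4e2. They made up 100% of Eif1 and 1.20% of Eif1b, and 97.1% of Eif2s3x and 0.377% of Eif2s3y. Eif4g2 and Eif4g1 had 0.304% and 1.27%. The part of shared sequence in these ratios was not tested. Among the helicases, Eif4a2 RNA was 1.78 to 2.53 times Eif4a1 RNA in the 4 basal libraries, while in RPFs the same ratio was 1.06 to 1.31 in the 5 basal libraries. Eif4a3, which belongs to the exon junction complex, lay below Eif4a1 by a factor of 5.88 to 6.81 in basal RNA and 7.82 to 8.56 in basal RPFs. Of the scaffolds, Eif4g2 RNA was 3.51 to 4.78 times Eif4g1 RNA, and its RPFs were 1.55 to 2.24 times those of Eif4g1. The coding sequences of Eif4g2 and Eif4g1 have 2718 and 4800 bases, but their transcripts have 7995 and 5638. Eif4g1 in turn exceeded Eif4g3 by 1.89 to 2.65 times in RNA and 1.88 to 2.06 times in RPFs. Mean lengths make these factors smaller. The counted length of Eif4g3 was 5226 bases in its longest coding sequence and 3555 on average, against 4740 and 4581 for Eif4g1.

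The cap-binding proteins lay further apart in RPFs than in RNA. Eif4e, the canonical cap-binding factor, stood 1.62 to 2.91 times above Eif4e2, which binds the cap in a repressor complex, in basal RNA and 4.54 to 5.37 times above it in basal RPFs. In RPFs Eif4e2 was 2.53 to 3.55 times Eif4e3. In RNA the order of these 2 genes depended on the scale. Per coding length Eif4e3 was the higher one in the basal libraries, while in CPM it was the lower one in replicates 1 to 3 (27.0, 26.6 and 28.4 against 31.7, 28.4 and 33.0) and the higher one in replicate 4 (40.1 against 32.5). Eif4ebp2, the main 4E-BP of brain, was the highest of the 3 4E-BPs, at 28.7 ± 2.27 TPM in RNA and 29.1 ± 3.90 in RPFs, and Eif4e exceeded it by 2.95 to 6.66 times in RNA and 6.10 to 9.70 times in RPFs.

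Eif1 exceeded its paralog Eif1b by 2.54 to 3.93 times in basal RNA and 5.02 to 5.97 times in basal RPFs. Eif1ax, the X-linked eIF1A gene, exceeded Eif1a by 5.98 to 9.13 times in RNA and 10.1 to 11.9 times in RPFs. The counted length of Eif1a was 702 bases in its longest coding sequence but 408.75 on average over 8 coding transcripts. Eif1ax has 1 such transcript, with 372 bases, so mean lengths make both factors smaller. Eif5a exceeded Eif5a2 by 7.37 to 20.6 times in RNA and 13.7 to 20.4 times in RPFs. The X-linked and Y-linked genes of eIF2 gamma went the other way. Eif2s3x was 6.76 to 10.4 times Eif2s3y in basal RNA and 3.77 to 4.39 times in basal RPFs.

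Per coding length, the mean levels of the subunits of the listed complexes lay closer together in RPFs than in RNA. The spread over all genes was not computed, so a trait of complexes cannot be told apart from a general difference between the assays. For the 5 subunits of eIF2B, the SD of the log2 levels in basal replicates 1 to 4 was 0.77 in RNA and 0.50 in RPFs. The highest RNA, that of Eif2b5, was 4.50 times the lowest, that of Eif2b3, and in RPFs the highest, Eif2b1, was 2.22 times Eif2b3. For Eif2s1, Eif2s2 and Eif2s3x, the subunits of eIF2, the SD was 0.62 in RNA and 0.36 in RPFs. Of these, Eif2s3x had the highest RNA and Eif2s2 the lowest, and 97.1% and 83.4% of their 30-base windows are shared with other genes. For the 13 subunits of eIF3 it was 1.17 in RNA and 0.65 in RPFs. Without Eif3j1, a loosely bound subunit left out after its value was seen, the SD was 0.86 in RNA and 0.66 in RPFs. The ranges over single replicates did not overlap between RNA and RPF for eIF2 (0.55 to 0.68 against 0.29 to 0.42), for eIF3 (1.02 to 1.44 against 0.64 to 0.69) and for eIF3 without Eif3j1 (0.77 to 1.02 against 0.63 to 0.72). Those of eIF2B did overlap (0.62 to 1.05 against 0.42 to 0.63). In eIF3, Eif3i, a WD repeat subunit, was the highest RNA and Eif3k the highest RPF.

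The RPF to RNA ratio of the basal slices differed widely among these genes. Of 47 members tested by edgeR's quasi-likelihood test on replicates 1 to 4, 30 passed an adjusted p of 0.05, with 22 above the median gene and 8 below it. The share of all 11702 genes tested that passed was 70.7%, with 35.2% higher and 35.6% lower. Against a fold of 1.5, 16 members were higher and 4 lower, with 20.2% and 20.8% of all genes. The ratio is the fitted log2 RPF less RNA count, set to 0 at the median gene, and had a median of 0.31 over the members.

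The deposited RNA counts leave the counted region in doubt. The methods describe RNA-seq reads aligned to whole transcripts, and for translation efficiency both assays counted over coding sequences. Over 10167 genes the log2 RNA CPM had a slope of 0.44 on log2 coding length and of -0.041 on log2 transcript length. The log2 RPF CPM, counted on coding sequences, had slopes of -0.015 and 0.11, so a slope does not identify the counted region. No length was entered in these ratios, a choice that the slopes do not settle. With RNA divided by transcript length and RPFs by coding length, as first planned, 37 members passed (19 higher and 18 lower), and the members' median was 0.04. With mean lengths over coding transcripts in the same correction it was 0.16. The ratio fell with coding length over all genes. Its median was 0.87 for 1297 genes with coding sequences under 600 bases, 0.18 for 4740 genes of 600 to 1500 bases and -0.30 for 5665 longer genes. The members had medians of 1.29 (7 genes), 0.31 (25 genes) and -0.17 (15 genes) in these classes, and the part of length in single ratios was not tested.

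The 3 highest ratios were those of Eif3j1, Eif1ax and Eif1. Eif3j1 had 2.90, 4.50, 4.44 and 2.95 in replicates 1 to 4, with a fitted value of 3.62 (SE 0.30, adjusted p = 1.77e-05 in edgeR). Its RNA was low and uneven, with 12.9, 5.15, 4.63 and 10.2 CPM in the basal libraries, while its RPFs had 86.1, 105, 91.3, 70.9 and 79.6 CPM. All 30-base windows of its coding sequence (100%) also occur in transcripts of another gene. Since the authors kept uniquely mapped reads, its level and ratio are uncertain.

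Eif1ax had 2.08, 2.91, 2.93 and 2.05 (fitted 2.48, SE 0.19, adjusted p = 1.27e-05), and 5.83% of its windows are shared. The ratio of Eif1 was 2.37, 2.06, 1.79 and 2.51 (fitted 2.18, SE 0.14, adjusted p = 6.91e-06), with 100% of windows shared with other genes' transcripts. Eif1b, with 1.20% of windows shared, had a fitted ratio of 1.47 (SE 0.12). Eif1 and Eif1b thus stood 4.53-fold and 2.77-fold above the median gene, and both start codons printed above lack the favoured bases. Over all genes, 733 with neither base had a median ratio of -0.15 and 5149 with both bases 0.03. Of the 5 members with neither base, Eif1, Eif1a and Eif1b had ratios well above 0 and Eif2b4 and Eif3b below.

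Eif5 and Eif5b also had high ratios, while Eif6 had -0.025 and did not pass. Eif5, the GTPase-activating protein for eIF2, had a ratio of 1.43 (SE 0.23), and Eif5b, the GTPase of subunit joining, 1.73 (SE 0.24). In Eif5 the replicates lay apart, with 0.70 and 1.05 in replicates 1 and 4 against 1.90 and 2.10 in replicates 2 and 3. Over the members, 26 of 47 had higher ratios in both replicates 2 and 3 than in both others, and 11 had lower ones. The shares over all genes were 35.0% and 33.8%. The sign was the same in all 4 replicates for each of the 30 members that passed.

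High ratios were found for 3 of the 4 eIF2 genes. Eif2s2 (beta subunit) had 1.99 (SE 0.19), Eif2s1 (alpha subunit, the target of the stress kinases) 1.55 (SE 0.16) and Eif2s3y 1.16 (SE 0.19). Eif2s3x, the gene with the TOP-like start, had 0.15 and did not pass (adjusted p = 0.430). Shared windows were 83.4% for Eif2s2, 56.7% for Eif2s1 and 97.1% for Eif2s3x. Over all members, 16 with more than 20% of windows shared had a median ratio of 0.91, and the other 31 a median of 0.27.

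The eIF2B subunits split. Eif2b5 had -1.30, -1.51, -1.76 and -1.50, with a fitted value of -1.52 (SE 0.12, adjusted p = 1.31e-05), and no window of its coding sequence is shared. Eif2b2 and Eif2b3 passed narrowly on the other side, with 0.37 (adjusted p = 0.0311) and 0.38 (adjusted p = 0.0469). The call of Eif2b2 was lost without replicate 1 or 2 (adjusted p = 0.0968 and 0.213) and that of Eif2b3 without replicate 1, 2 or 3 (0.0751, 0.273 and 0.0877). With the length correction Eif2b2 no longer passed (adjusted p = 0.788) and Eif2b3 turned to -0.39 (adjusted p = 0.0395).

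In eIF3, 5 of 13 subunits were higher, 2 lower and 6 did not pass. Besides Eif3j1, these were the scaffold subunits Eif3a (1.03, SE 0.20) and Eif3c (0.91, SE 0.13), the RNA-binding subunit Eif3g (0.93, SE 0.11) and Eif3m (0.52, SE 0.15). With the length correction Eif3a, Eif3c and Eif3g no longer passed (adjusted p = 0.112, 0.146 and 0.130), and Eif3m turned to -0.24 (adjusted p = 0.189). Without replicate 2 the call of Eif3m was lost (adjusted p = 0.0692). Eif3f (-0.63, SE 0.12) and Eif3i (-0.54, SE 0.12) were lower. The 4 genes listed as TOP initiation factors, Eif3e, Eif3f, Eif3h and Eif4b, all lay below 0 with a median of -0.26, and of these Eif3f passed. The list was not drawn from the start sites above. There Eif3f was of TOP type, Eif4b was not, and Eif3e and Eif3h were not matched.

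In the eIF4 group, Eif4h, a cofactor of the helicase, had a ratio of 1.49 (SE 0.11) and Eif4e 1.32 (SE 0.18). Eif4a1 had 0.31 (SE 0.10) and Eif4a2 -0.62 (SE 0.13), so that the paralogs lay on opposite sides of the median gene. Eif4a1 turned to -0.10 with the length correction, and its call was lost without replicate 1, 2 or 3 (adjusted p = 0.0788, 0.145 and 0.0615). For these 2 genes, 99.2% and 40.5% of windows are shared. Eif4g2, with the GTG start, had -0.96 (SE 0.17) and missed the threshold with the length correction (-0.39, adjusted p = 0.0556). Eif4g1 and Eif4g3 did not pass.

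The lowest ratios of all were those of Eif4e3 (-1.77, -1.30, -1.71 and -2.11 in replicates 1 to 4, fitted -1.72, SE 0.16, adjusted p = 3.45e-05) and Eif2b5. Of the windows of Eif4e3, 51.3% are shared with another gene's transcripts. Next came Eif4enif1, which encodes the eIF4E transporter 4E-T, with -1.53, -0.95, -0.70 and -1.27 (fitted -1.10, SE 0.16, adjusted p = 0.000321). In CPM, Eif4enif1 RNA ran from 49.1 to 72.7 in the basal libraries and its RPFs from 22.4 to 27.7. Eif4ebp2 was above the median gene with 0.44 (SE 0.15, adjusted p = 0.0254), a call that was lost when any 1 of the 4 replicates was left out (adjusted p of 0.0543 to 0.0860).

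**Figure D2:**
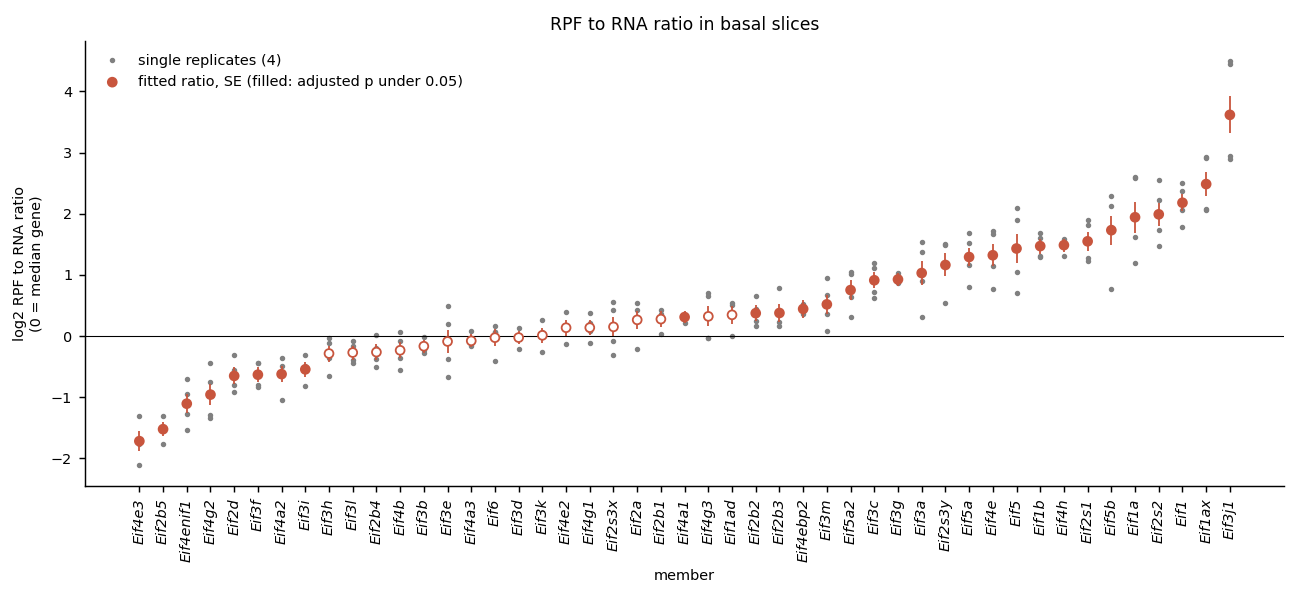
Log2 RPF to RNA ratio of 47 members in basal slices, with 0 at the median gene. Grey points are the 4 replicates and circles the fitted ratio with its SE, filled where the adjusted p is under 0.05. The members run from Eif4e3 at -1.72 to Eif3j1 at 3.62, and 30 of 47 are filled.

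Of 25 other genes of initiation, among them Ddx3x, the eIF4E kinases Mknk1 and Mknk2 and the poly(A) binding protein Pabpc1, 14 passed above the median gene, 4 passed below it and 7 did not pass, with a median ratio of 0.50. Of 11 elongation and termination factors, 4 passed above, 4 passed below and 3 did not pass, with a median of -0.12. The shares of all genes tested are those given above, 35.2% higher and 35.6% lower.

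After 5 min of DHPG no initiation factor gene passed the test in either assay. In RNA, 0 of 47 members passed an adjusted p of 0.01 by edgeR with replicate number as a block (0.00773% of 12935 genes passed). In RPFs, 0 of 48 passed an adjusted p of 0.05 (0.22% of 13208 genes). The change of the RPF to RNA ratio, tested as the interaction of assay and treatment, gave 0 of 47 at an adjusted p of 0.05 (0% of 12691 genes). DESeq2 with the block gave 0 members in RNA at the same thresholds (0% of all genes) and 0 in RPF (0.212%). Below an unadjusted p of 0.05 there were 6 members in RNA (background 8.02%), 7 in RPF (10.8%) and 5 in the ratio (6.69%). DESeq2 gave 2 in RNA (background 2.07%) and 4 in RPF (3.41%). In both assays the basal and DHPG libraries overlapped for each of the 50 genes. The share over all genes was not computed, and Eif4e1b, at 0 in all RNA libraries, could only overlap there.

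The small differences leaned downward. In RNA, 33 of 47 members had a log2 fold change below 0 with a median of -0.066, against 47.9% of all genes. In RPFs, 38 of 48 lay below 0 with a median of -0.033, against 48.6% of all genes. By pairs, more members were lower than higher after DHPG in the RNA of replicates 1, 3 and 4 (36, 33 and 38 of 47) but not in replicate 2 (16 of 47). In RPFs this held in replicates 1, 2, 3 and 5 (36, 40, 29 and 29 of 48) but not in replicate 4 (21 of 48). Counts of genes share their libraries and are no replicates of the treatment.

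**Figure D3:**
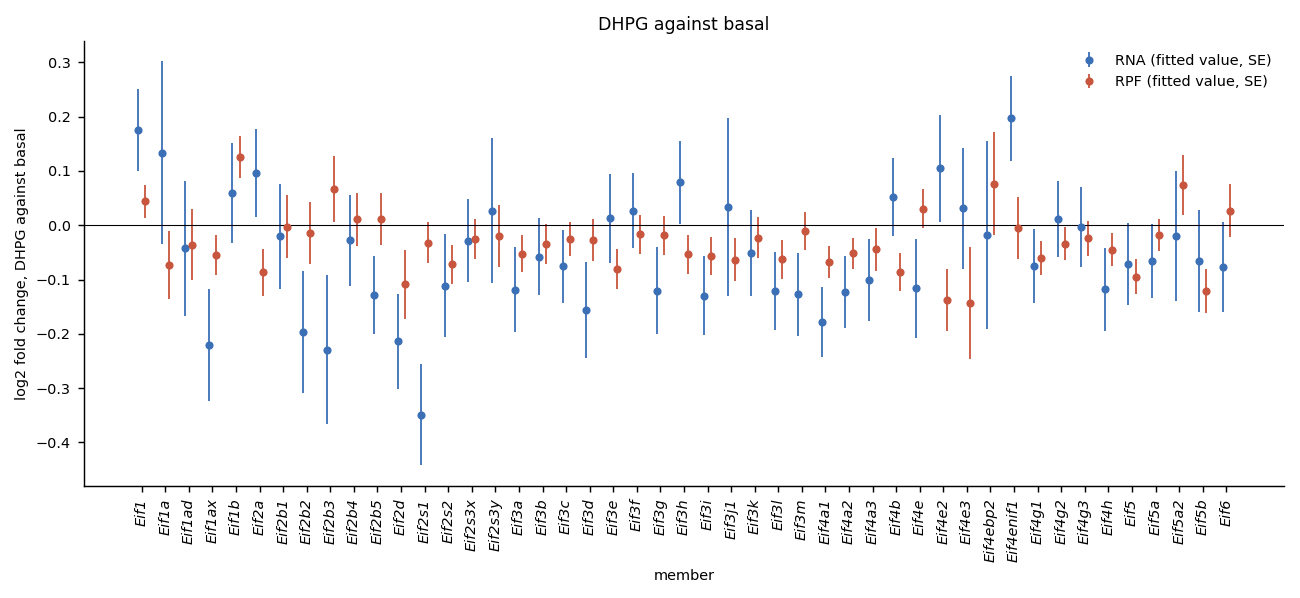
Log2 fold change of 47 members for DHPG against basal, in RNA (blue) and RPF (red), with the fitted value and its SE. Values lie between -0.35 and 0.20 in RNA and between -0.14 and 0.13 in RPF, and 0 members passed the test in either.

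Markers of other tissue and of several cell types moved in the same libraries. All 6 listed thalamus markers passed in RPFs with a median log2 fold change of 0.54. Their summed level ran from 106 to 134 CPM in basal and 113 to 178 CPM in DHPG RPF libraries, and from 73.5 to 98.3 and 88.3 to 123 CPM in the RNA libraries, with no marker at 0 throughout. In RPF pairs the summed level differed by 0.30, 0.55, 0.50, 0.42 and -0.19 (log2) in replicates 1 to 5. This thalamus list was drawn up after calls in these data had been seen. The 5 oligodendrocyte markers lay above 0 in RNA with a median of 0.17 and did not pass, and their sum ran from 2041 to 4435 CPM in basal and 2352 to 5237 in DHPG RNA libraries. In RPFs 1 of the 5 passed, higher after DHPG, and the median was 0.11. Of 5 interneuron markers 1 passed in RPFs, also higher, but as a list they did not rise. In RPFs 2 lay above 0 and 3 below (median -0.00015), and in RNA 1 above and 4 below (median -0.072). Of the remaining lists no marker passed. Astrocyte and microglia markers lay above 0 in RPFs in 5 of 5 cases each (medians 0.052 and 0.087), and in RNA in 4 and 3. The 3 endothelium markers lay below 0 in RPFs (median -0.12) and 2 of them in RNA. Pyramidal and dentate granule markers lay above 0 in RNA in 6 of 6 and 3 of 3 cases, and in RPFs in 4 and 2. The part of tissue make-up in the members' values was not tested, and in whole slices fewer cells of a type and less RNA per cell cannot be told apart.

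In RNA the 3 members with the smallest p were Eif2s1, Eif4a1 and Eif4enif1. Eif2s1 had 44.8, 30.3, 27.2 and 43.9 CPM in basal replicates 1 to 4 and 36.6, 22.5, 18.8, 37.4 and 47.1 CPM in DHPG replicates 1 to 5. It was lower in 4 of 4 pairs. Replicates 2 and 3 were low in both groups, and the groups overlapped. The log2 fold change was -0.35 (SE 0.09, adjusted p = 0.414 in edgeR). Its RPFs had 91.0 to 96.4 CPM in basal and 87.4 to 95.6 CPM in DHPG libraries, with a log2 fold change of -0.032 (adjusted p = 0.816).

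Eif4a1 RNA had 549, 473, 497 and 562 CPM in the basal libraries and 462, 452, 425, 500 and 514 CPM after DHPG. It was lower in 4 of 4 pairs (log2 fold change -0.18, SE 0.065, adjusted p = 0.545). Eif4enif1 RNA had 72.7, 60.4, 49.1 and 63.1 CPM in basal libraries and 79.2, 63.1, 60.04, 77.7 and 61.7 CPM after DHPG, higher in 4 of 4 pairs (0.20, SE 0.08, adjusted p = 0.558). In RPFs its log2 fold change was -0.0052 (adjusted p = 0.984).

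In RPFs the smallest p-values were those of Eif1b, Eif5b and Eif5. Eif1b had 93.4, 99.5, 86.8, 69.8 and 72.6 CPM in basal replicates 1 to 5 and 104, 101, 99.05, 70.8 and 84.9 CPM after DHPG. It was higher in 5 of 5 pairs (0.13, SE 0.04, adjusted p = 0.189). Eif5b had 110, 91.1, 88.7, 85.4 and 89.8 CPM in basal and 90.8, 76.4, 84.4, 84.5 and 88.8 CPM in DHPG libraries, lower in 5 of 5 pairs (-0.12, SE 0.04, adjusted p = 0.233). Eif5 had 190, 205, 199, 226 and 191 CPM in basal and 167, 187, 195, 215 and 181 CPM after DHPG, also lower in 5 of 5 pairs (-0.095, SE 0.032, adjusted p = 0.246). Basal and DHPG libraries overlapped in each of the 3 genes.

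**Figure D4:**
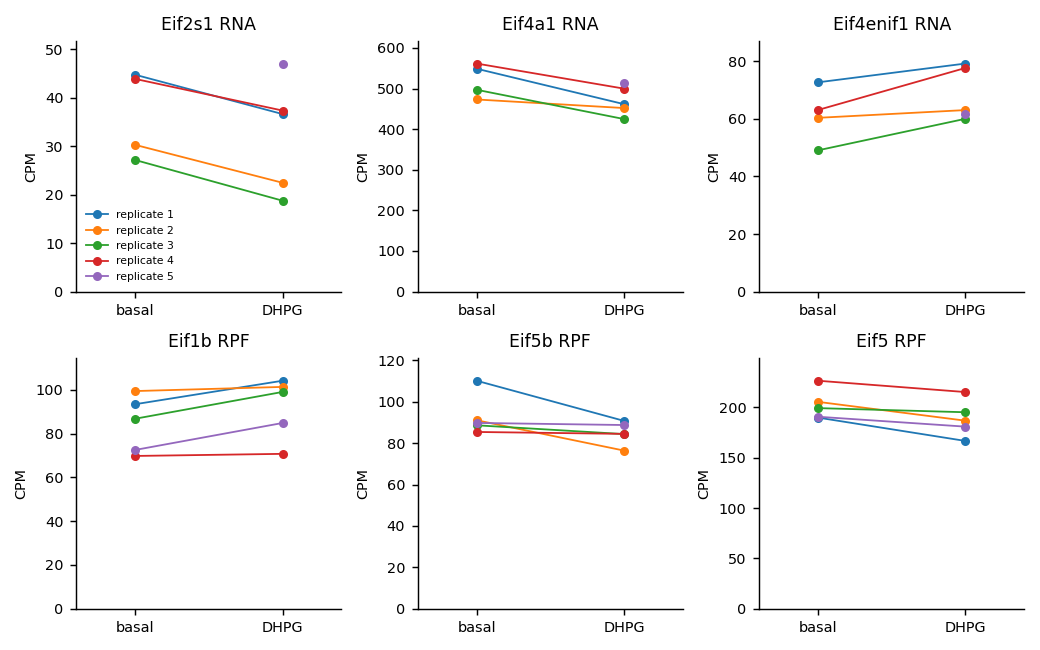
CPM of the 3 members with the smallest p in RNA (top) and in RPF (bottom), each axis starting at 0. Lines join the basal and DHPG libraries of a replicate, and the DHPG RNA library of replicate 5 stands alone. Eif2s1 and Eif4a1 RNA fall along 4 of 4 lines and Eif1b RPFs rise along 5 of 5, but the groups overlap in every panel.

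For the change of the RPF to RNA ratio, Eif2s1 had 0.31 (SE 0.09, adjusted p = 0.657), Eif4enif1 -0.20 (SE 0.09, adjusted p = 0.703) and Eif2b3 0.31 (SE 0.14, adjusted p = 0.732). Eif2b3 RNA had 22.1, 11.1, 19.1 and 20.5 CPM in the basal libraries and 17.2, 16.5, 15.9, 13.6 and 13.96 CPM after DHPG, lower in 3 of 4 pairs.

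By complex, all 13 eIF3 subunits had RPF values below 0, from -0.08 to -0.01, and 0 passed. Of all genes, 48.6% lay below 0 in RPFs and 47.9% in RNA. Subunits share their libraries, and only Eif3e and Eif3i were lower in 5 of 5 RPF pairs. In RNA 9 of the 13 lay below 0. All 5 eIF2B subunits were below 0 in RNA (-0.23 to -0.02), while 3 of the 5 were above 0 in RPFs. Only Eif2b5 was lower in 4 of 4 RNA pairs. The eIF4F genes lay below 0 in 5 of 8 cases in RNA and 7 of 8 in RPFs. The 4 listed TOP initiation factors, of which only Eif3f was found with a TOP start site, were above 0 in RNA (0.01 to 0.08). They were below 0 in RPFs (-0.09 to -0.02), with the ratio below 0 in 4 of 4 (median -0.11, against 50.5% of all genes below 0). None of these members passed in edgeR. In RPFs 2 of the 4, Eif4b and Eif3e, were below an unadjusted p of 0.05 (10.8% of all genes). Of the 25 other initiation genes 0 passed in RNA, RPF or ratio by edgeR, with 4, 7 and 5 below an unadjusted p of 0.05. Of the 11 elongation and termination factors 0 passed, with 1 below that p in each of the 3 tests. The shares of all genes below that p were 8.02% in RNA, 10.8% in RPF and 6.69% in the ratio.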

How the data were processed

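RNA-seq and ribosome profiling libraries of hippocampal slices were analysed (19 samples). The deposited tables hold RSEM's expected counts, written by the authors as whole numbers, after removal of rRNA and tRNA reads (Bowtie2), alignment to mm10 (TopHat2) and removal of duplicates by molecular identifiers. RPFs were counted on coding sequences without 30 bases at each end. Another 12 columns match none of the samples and were left aside. The members and gene lists were chosen with earlier results of these data known.

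Calculations used R 4.3.3, edgeR 4.0.16, DESeq2 1.42.0 and Python with GENCODE coding lengths. Each adjusted p is from edgeR's quasi-likelihood F test (TMM, filterByExpr, Benjamini-Hochberg over all genes tested, replicate number as a block) at 0.01 for RNA and 0.05 otherwise. Of the 50 genes, 47 entered all fits. Eif4e1b and Eif4ebp3 entered none, and Eif4ebp1 the RPF fit only. The length correction planned for the basal ratio was made an alternative once the RNA counts were seen to follow coding length. This does not settle the region over which RNA was counted. Named genes were the 3 with the smallest p per DHPG contrast (none passed), the 3 highest and 3 lowest in level or ratio, and the members of the listed complexes and paralog sets. Same-numbered samples deviated together (correlations of 0.27 to 0.72 in RNA and 0.26 to 0.52 in RPF; RNA replicate 2 correlated at up to 0.44 with a sample of another number, against 0.27 with its own), so the numbers were taken as pairs. Steps were tested on simulated data.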

Additional observations from a re-analysis of the deposited data

Results flagged for a closer look

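Over 104 groups of 4 or 5 libraries screened among the named genes, 5 had a single library standing apart, about the 1 in 20 that chance gives. Eif2s3y RNA had 21.2 CPM in basal replicate 4 against 11.3 to 12.4 in the other basal libraries. Eif4e3 RNA had 40.1 CPM in basal replicate 4 against 26.6 to 28.4. Eif4e RNA had 42.5 CPM in DHPG replicate 3 against 52.8 to 56.8. Eif5a2 RPFs had 32.2 CPM in basal replicate 2 against 23.2 to 25.4. Eif5b RPFs had 110 CPM in basal replicate 1 against 85.4 to 91.1, and this library takes part in the downward difference of Eif5b after DHPG.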

How the results depend on the processing

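The count of members passing for DHPG against basal was 0 in RNA, RPF and ratio under every alternative run for it: DESeq2's size factors, no filter, a minimum of 10 counts per library, removal of the replicate block, each replicate left out (0 to 0), and for RNA and RPF DESeq2 and another threshold. Without the replicate block 0 members were below an unadjusted p of 0.05 in the 3 tests. Members below 0 numbered 27 to 39 in RNA and 33 to 38 in RPF when 1 replicate was left out, and 34 and 36 without the replicate block. For the basal ratio, 25 to 32 members passed when 1 replicate was left out (17 to 24 higher, 8 to 8 lower), and 32 (22 higher and 10 lower) without the block. Those lower numbered 18 with the length correction by longest coding sequence, 18 with mean lengths and 4 against a fold of 1.5. With that correction Eif2b3, Eif3m and Eif4a1 turned to -0.39, -0.24 and -0.10, and with mean lengths Eif3m and Eif4a1 to -0.22 and -0.10. Near 0, Eif1b RNA turned to -0.013 and Eif5b RNA to 0.037 with no replicate block. With 1 replicate left out, Eif1b RNA ran from -0.0078 to 0.12, the Eif1b ratio change from -0.022 to 0.16 and Eif4enif1 RPFs from -0.024 to 0.022. The causes were not tested.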
